A study of Homo sapiens with 38 samples.

Results

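The genes described are 8 transcription factors of the hepatocyte lineage: HNF4A, FOXA1, FOXA2, FOXA3, CEBPA, NR1H4, ONECUT1 and PROX1. They were taken by name from each count table, and all 8 were found among 58735 genes of the RNA-seq, 18029 genes of the Hep3B screen and 18036 genes of the SNU-398 screen. Hep3B and SNU-398 are human hepatocellular carcinoma (HCC) cell lines. The study asked which gene losses change the response of such cells to targeted drugs, and what the loss of PSTK, a kinase of selenocysteine synthesis, does to their RNA.

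In the screens, cells of both lines that stably expressed Cas9 carried the TKOv3 knockout library, and each group gave 2 libraries. T0 cells were collected before treatment. The other groups were grown for 14 days, as T1 (taken here as the vehicle group) or with Sorafenib, Regorafenib or Lenvatinib (tyrosine kinase inhibitors), Erastin (a ferroptosis inducer), or Abemaciclib or Palbociclib (CDK4 and CDK6 inhibitors). The RNA-seq compared 3 control with 3 PSTK-KO libraries (genotype PSTK-/-) labelled Hep3B. By the study's methods, the knockout cells received a vector with a pair of PSTK guides and were selected in puromycin, and no cloning step is stated. No treatment is named for the RNA-seq samples.

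These factors work as a network. HNF4A, a nuclear receptor without a known regulated ligand, and CEBPA, a leucine zipper factor, bind near many genes of liver metabolism and plasma protein synthesis. FOXA1, FOXA2 and FOXA3 are forkhead proteins that can bind closed chromatin and open it for other factors. NR1H4, also called FXR, is the bile acid receptor, ONECUT1 is a cut homeodomain factor of the developing liver and bile ducts, and PROX1 is a homeodomain factor needed for hepatoblasts to migrate. HCC cells often keep part of this network, and its loss is a known sign of dedifferentiation.

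Of the 8 factors, 3 were expressed in the RNA-seq libraries labelled Hep3B, and 5 were counted at 3 reads or fewer in every library. HNF4A, FOXA1 and CEBPA stood at about the same level in the control libraries. FOXA1 had 3.73 FPKM ± 0.626 (SD, n = 3), HNF4A 3.51 FPKM ± 0.286 and CEBPA 2.96 FPKM ± 0.387. FPKM is a level per gene length, so these values can be set side by side, and no 2 neighbours in this order differed by more than the sum of their SDs. All 3 were modest levels: the median was 6.45 FPKM over the 12667 genes with a mean of at least 1 FPKM in the control libraries.

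**Figure D1:**
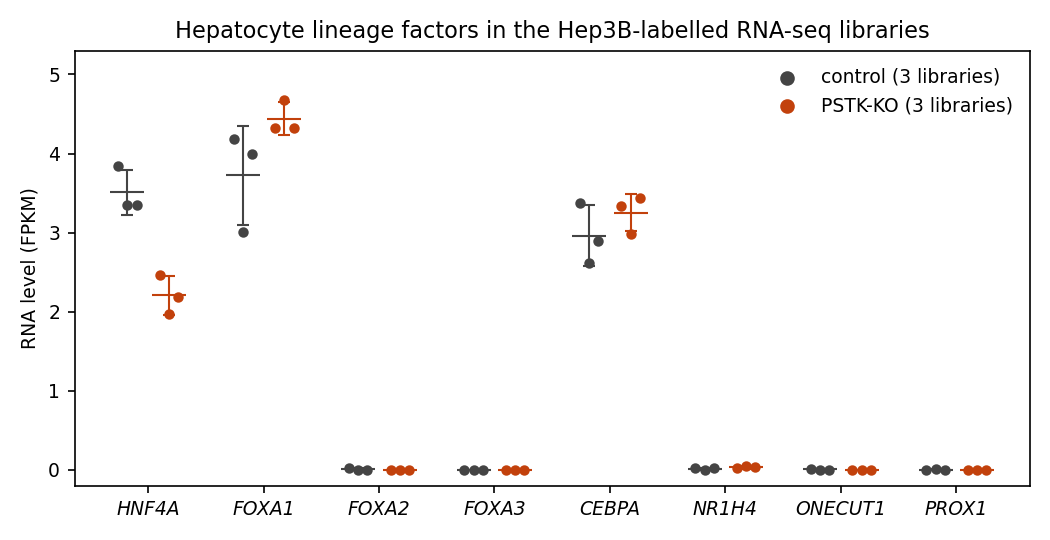
RNA level of the 8 factors in FPKM (vertical axis), with 1 point per library for control (grey) and PSTK-KO (orange), and the mean ± SD. HNF4A is lower in all 3 PSTK-KO libraries, between 1.97 and 2.46 against 3.35 to 3.84, and FOXA2, FOXA3, NR1H4, ONECUT1 and PROX1 lie at or near 0.

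The upstream sequences of the 3 expressed factors are shown because HNF4A, the one that changed, has 2 promoters and its count does not separate them. Each is the 250 bases before a RefSeq start on GRCh38.p14, written 5′ to 3′ on the gene's strand. The proximal HNF4A promoter is the one used in adult hepatocytes. HNF4A distal is chr20:44355449-44355698 (+ strand), HNF4A proximal is chr20:44400989-44401238 (+ strand), FOXA1 is chr14:37595250-37595499 (- strand) and CEBPA is chr19:33302535-33302784 (- strand). Capitals mark matches to 4 short motifs, searched on both strands: a forkhead motif (TGTTTAC), an HNF4 motif (CAAAGTCCA), a C/EBP motif (TTGCNNAA) and the CCAAT box (CCAAT).
HNF4A distal: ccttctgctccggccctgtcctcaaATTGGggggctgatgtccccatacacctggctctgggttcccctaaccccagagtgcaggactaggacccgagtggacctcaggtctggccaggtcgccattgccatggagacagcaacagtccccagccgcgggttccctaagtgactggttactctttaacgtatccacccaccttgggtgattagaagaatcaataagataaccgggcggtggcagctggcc
HNF4A proximal: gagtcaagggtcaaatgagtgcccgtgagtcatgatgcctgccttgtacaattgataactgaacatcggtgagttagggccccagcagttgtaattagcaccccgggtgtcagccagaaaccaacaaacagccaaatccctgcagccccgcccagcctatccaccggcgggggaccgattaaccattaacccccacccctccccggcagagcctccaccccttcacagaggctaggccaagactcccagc
FOXA1: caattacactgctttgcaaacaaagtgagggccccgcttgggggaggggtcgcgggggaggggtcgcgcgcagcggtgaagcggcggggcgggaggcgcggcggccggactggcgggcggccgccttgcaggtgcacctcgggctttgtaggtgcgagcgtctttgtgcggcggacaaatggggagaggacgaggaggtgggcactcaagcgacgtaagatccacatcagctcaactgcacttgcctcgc
CEBPA: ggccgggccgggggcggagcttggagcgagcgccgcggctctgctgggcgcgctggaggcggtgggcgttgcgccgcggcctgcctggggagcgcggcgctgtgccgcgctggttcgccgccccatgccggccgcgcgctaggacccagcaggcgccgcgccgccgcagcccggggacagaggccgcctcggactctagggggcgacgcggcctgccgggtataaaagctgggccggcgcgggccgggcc
The capitals in the distal HNF4A sequence are 1 CCAAT box. The proximal HNF4A, FOXA1 and CEBPA windows held no match, and the CEBPA window was 81.2% G or C. Among 35116 promoter windows of the same length, 32% held the CCAAT box, 9.05% the C/EBP motif, 2.98% the forkhead motif and 0.325% the HNF4 motif. A match describes letters and is not evidence of a bound site. FOXA2 and PROX1 had no entry in the promoter table.

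HNF4A RNA was lower in PSTK-KO than in control. The gene (ENSG00000101076, chr20:44355700-44434596) had 3.84, 3.35 and 3.35 FPKM in the control libraries and 2.46, 1.97 and 2.19 FPKM in PSTK-KO. The groups did not overlap. In counts, these were 449, 406 and 383 reads against 285, 237 and 276. HNF4A fell by 0.67 on the log2 scale (SE 0.10, 95% CI -0.88 to -0.46, adjusted p = 3.39e-06, edgeR quasi-likelihood test with Benjamini-Hochberg adjustment), to 0.627 of its control level. Across all 15370 genes tested, 32.8% passed this test, 17.2% as lower and 15.6% as higher, so a call by itself was common in this comparison.

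FOXA1 (ENSG00000129514, chr14:37589984-37596059) had 4.18, 3.01 and 3.99 FPKM in control and 4.33, 4.68 and 4.32 FPKM in PSTK-KO. Every PSTK-KO library lay above every control library, but the lowest of them exceeded the highest control by little and 1 control library lay well below the other two. The difference was 0.25 on the log2 scale (SE 0.12, 95% CI 0.01 to 0.49), which did not pass the test (adjusted p = 0.104, edgeR). CEBPA (ENSG00000245848, chr19:33299934-33302564) had 3.38, 2.61 and 2.89 FPKM in control and 3.34, 2.98 and 3.44 FPKM in PSTK-KO. Its groups overlapped, with a difference of 0.13 on the log2 scale (SE 0.14, 95% CI -0.16 to 0.43, adjusted p = 0.523, edgeR). Neither interval reaches a fall of the size seen for HNF4A.

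The other 5 factors were near the limit of detection. FOXA3 (ENSG00000170608, chr19:45863989-45873797) had no read in any of the 6 libraries, which allows up to 0.195 CPM (3 reads) in the smallest of them. FOXA2 (chr20:22581005-22585455) and ONECUT1 (chr15:52756989-52791078) each had 1 read in control replicate 1 and none elsewhere, and PROX1 (chr1:213983181-214041502) had 1 read in control replicate 2. NR1H4 (chr12:100473708-100564413) had 1, 0 and 1 reads in control and 1, 3 and 2 in PSTK-KO. No comparison of these levels was possible at this depth, which was 15404153 to 16851558 counts per library, and none of the 5 passed the filter on low counts. In bulk RNA, fewer cells with a factor and less RNA per cell cannot be told apart.

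The usual hepatocyte markers were also rare. The 8 markers ALB, AFP, TTR, TF, APOA1, APOB, SERPINA1 and FGB summed to 2.25 to 3.43 CPM in control and 0.779 to 1.30 CPM in PSTK-KO. AFP, the fetal albumin homologue that HCC lines typically secrete, had 0, 0 and 0 reads in control and 1, 3 and 0 in PSTK-KO, and TTR had none in any library. ALB had 37, 24 and 24 reads in control and 1, 0 and 0 in PSTK-KO, a ratio of control to PSTK-KO of 83.5 (95% exact interval 14.6 to 3335, counting error only). FGB, the other marker that could be tested, went the opposite way, from 0, 3 and 2 reads in control to 11, 10 and 11 in PSTK-KO, so the lower sum was that of ALB and of markers too rare to test. None of the 8 reached 1 FPKM in all control libraries, while other liver genes did, among them RBP4 at 13.6 FPKM ± 2.26 (SD, n = 3), VTN at 11.9 FPKM ± 1.79 and CPS1 at 82.9 FPKM ± 5.03 in control. Whether this bears on the levels of the 8 factors was not tested.

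Markers of other cell types were counted in part. Of 6 bile duct markers, KRT7, an epithelial keratin, had 6977 to 7476 reads in control and 8288 to 8689 in PSTK-KO, EPCAM had 135 to 183 reads over all 6 libraries, and KRT19 and SPP1 had at most 4. The 6 bile duct markers summed to 428 to 471 CPM in control and 535 to 555 CPM in PSTK-KO, and 2 of the 4 tested, KRT7 and SOX9, were higher in PSTK-KO. The 6 fibroblast markers summed to 57.2 to 65.3 CPM and 40.8 to 44.9 CPM, with COL1A2 at 0 or 1 read, and the 3 tested (DCN, PDGFRB and COL1A1) were lower in PSTK-KO. The 6 endothelial markers summed to 13.3 to 14.1 CPM and 8.14 to 10.8 CPM, with KDR at 0, and the 2 tested (VWF and CDH5) were lower, calls that limma on FPKM did not make. The 6 blood cell markers did not exceed 0.599 CPM in sum, with PTPRC and CD3E at 0. Over all genes tested, 32.8% were called, 15.6% as higher and 17.2% as lower. The part of the marker genes in the change of HNF4A was not tested.

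**Figure D2:**
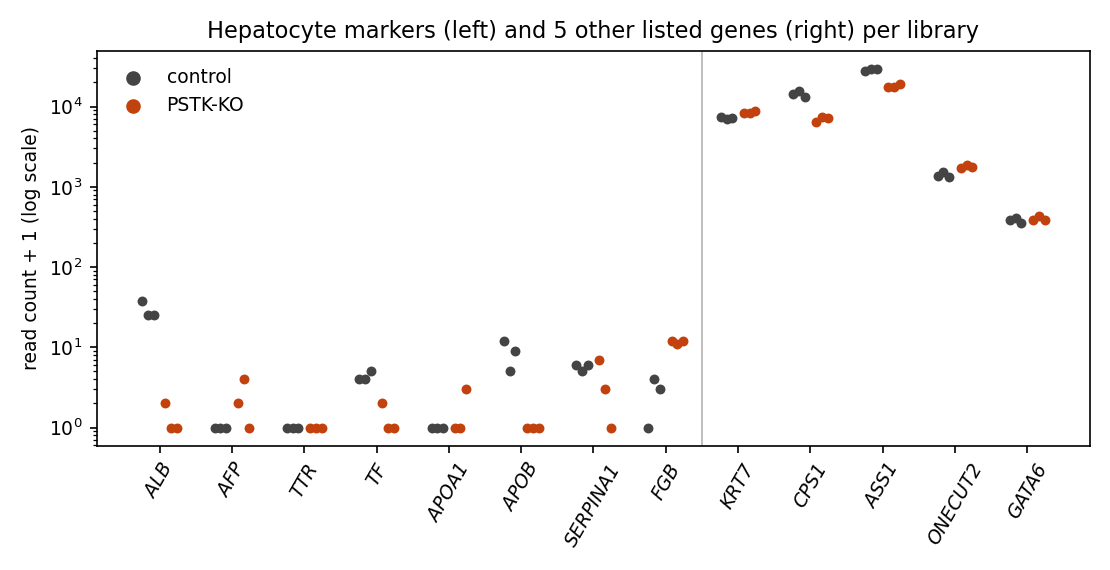
Read count plus 1 on a log axis, with 1 point per RNA-seq library (3 control in grey, 3 PSTK-KO in orange), for the 8 hepatocyte markers on the left and 5 other listed genes, chosen after their values were seen, on the right. No marker exceeds 37 reads in any library, while KRT7, CPS1, ASS1, ONECUT2 and GATA6 have between 349 and 29595 reads.

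PSTK, the edited gene, had 76, 84 and 64 reads in control and 63, 71 and 87 in PSTK-KO. The groups overlapped (difference -0.06 on the log2 scale, SE 0.18, 95% CI -0.44 to 0.31, adjusted p = 0.840, edgeR). An edited gene can lose its protein and still be transcribed, so this neither shows nor denies the knockout. The study assessed PSTK protein by Western blot and reported an efficient knockout in Hep3B and other HCC lines.

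The regulators that work beside the 8 factors were present in part. Of 32 other liver regulators, 20 had at least 1 FPKM in every control library. Some were relatives of genes that were not counted. ONECUT2, a homologue of ONECUT1, had 1364, 1545 and 1329 reads in control and 1689, 1865 and 1745 in PSTK-KO. GATA6 had 349 to 428 reads while GATA4 had at most 1, so within both pairs of related factors one member was counted and the other was not. NR0B2, the NR1H4 target that represses bile acid synthesis, had at most 4 reads, and CYP7A1, the rate-limiting enzyme of that synthesis, at most 3.

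Of 24 of these regulators that could be tested, 7 were higher in PSTK-KO and 8 lower, where 15.6% and 17.2% of all genes were. Their median difference was -0.01 on the log2 scale (over all genes -4.77e-05). All fold changes in this paragraph and the next are from the same edgeR fit. The higher genes included CEBPG, a partner of other C/EBP proteins (by 0.59, SE 0.08, adjusted p = 1.45e-07), and HHEX, a homeodomain factor of early liver (by 0.43, SE 0.11, adjusted p = 0.00173). SOX9, a factor of bile duct cells (by 0.59, SE 0.21, adjusted p = 0.031), and NR5A2, a nuclear receptor that works with HNF4A (by 0.57, SE 0.20, adjusted p = 0.0284), rested on fewer than 100 reads per library. Their calls were lost under several alternatives. The lower genes were led by MLXIPL, the carbohydrate-responsive factor of lipid synthesis (fell by 1.26, SE 0.17, adjusted p = 6.12e-07), and CREB3L3, a liver factor of the fasting response (fell by 1.02, SE 0.13, adjusted p = 1.36e-07). PPARGC1A, the coactivator of HNF4A in gluconeogenesis, fell by 0.74 (SE 0.08, adjusted p = 9.38e-09), and CEBPD fell by 0.69 (SE 0.07, adjusted p = 9.57e-10).

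The genes that these factors are known to regulate were mostly not counted. Of 20 bile acid genes, 12 had 10 reads or fewer in every library, as did 25 of 35 plasma protein genes and 19 of 25 hepatocyte enzymes. Those that could be tested were few. All 5 enzymes tested were lower in PSTK-KO, where 17.2% of all genes were, with a median of -1.07 on the log2 scale. CPS1, the first enzyme of the urea cycle, had 14148, 15766 and 13202 reads in control and 6493, 7476 and 7178 in PSTK-KO (fell by 1.07, SE 0.05, adjusted p = 9.35e-18). ASS1, also of the urea cycle, fell by 0.73 (SE 0.04, adjusted p = 3.71e-15), and HGD, of tyrosine breakdown, fell by 1.72 (SE 0.15, adjusted p = 8.41e-11). PCK1, of gluconeogenesis, fell by 1.73 (SE 0.38, adjusted p = 0.000557), from 29 to 30 reads in control to 6 to 11.

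Plasma protein and bile acid genes moved both ways. Of 7 plasma protein genes tested, 3 were lower (ALB, the copper carrier CP and vitronectin VTN) and 2 higher (RBP4, the retinol carrier, and FGB, a fibrinogen chain), with a median of -0.42. The call of CP, at 17 to 35 reads in control and 5 to 12 in PSTK-KO, was lost without control replicate 3 (adjusted p = 0.0772, edgeR) or PSTK-KO replicate 2 (adjusted p = 0.0627). VTN fell by 0.68 (SE 0.10, adjusted p = 3.31e-06) and RBP4 rose by 0.60 (SE 0.10, adjusted p = 1.33e-05). Of 6 bile acid genes tested, SDC1, a syndecan, rose from 6 to 10 reads to 61 to 79 (by 3.11, SE 0.30, adjusted p = 6.55e-10), and ABCC2, a canalicular exporter, rose by 0.26 (SE 0.08, adjusted p = 0.00892). SLC51B, a subunit of the basolateral bile acid transporter, fell by 0.68 (SE 0.16, adjusted p = 0.00101). Over the 4 lists, 28 of 42 genes tested (66.7%) passed, 11 higher and 17 lower, beside 32.8% of all genes. Of these, SDC1, ALB, FGB, CP and PCK1 reached the count cutoff of 0.617 CPM in all 3 libraries only of the group where they were higher, so their test could hardly give no difference. Among the 36 genes that reached it in both groups, 23 passed, and no share of all genes was computed under that condition. The lists were chosen with earlier results of these data known, so these counts are a description.

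**Figure D3:**
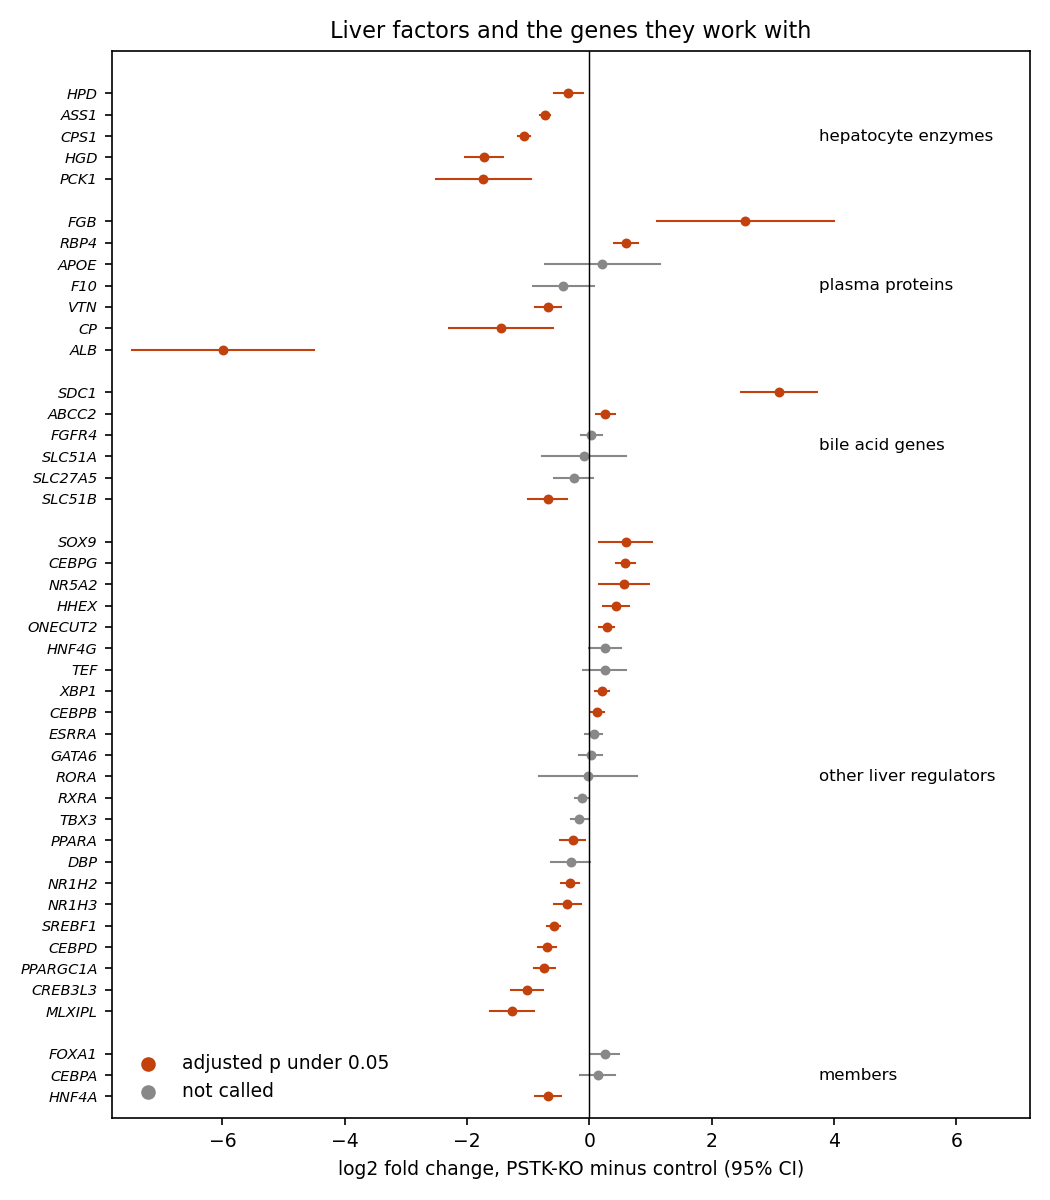
Log2 fold change of PSTK-KO minus control (horizontal axis, point, with its 95% confidence interval as a line) for the 3 factors and genes of 4 liver lists that could be tested by edgeR, in orange where the adjusted p was under 0.05. HNF4A lies at -0.67 and all 5 enzymes lie below 0, while the other regulators spread to both sides.

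In the screens, guides against the 8 factors were scarce from the start. The Hep3B table held 31 such guides of 66890, with 3 for FOXA3 and 4 for each other factor, and the SNU-398 table held 25 of 66582. The guide sequences were not analysed here, so guides are numbered by position along the gene, the same number standing for the same guide in both lines. At T0, 18 of the 31 Hep3B guides (58.1%) and 15 of the 25 SNU-398 guides (60%) had a mean count under 20. Among all guides these shares were 41.5% and 40.5%, and among control guides, which target no human gene, 43.9% and 43.7%. Counts came in twos, with 77.2% to 97.3% of the counts above 0 even in Hep3B and 85.7% to 97.4% in SNU-398, so a count of 20 stands for about 10 reads or read pairs if each was counted again by its mate.

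The 2 libraries of a group were alike nearly to counting error, which sets how the tests below can be read. Over guides with 50 counts or more, the mean chi-square per guide between them was 2.54 to 2.71 in Hep3B, where counting in twos alone would give 2. It was 2.53 to 3.83 in SNU-398, except for the Erastin libraries, with 33.7. SNU-398 Erastin replicate 2 had a mean log2 correlation of 0.929 with the Hep3B day 14 libraries, against 0.844 for Erastin replicate 1. Whether the libraries of a group were cultured separately is stated in no source, and the p-values rest on this spread alone, which may be technical.

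Most of the scarce guides were gone at T1. In Hep3B, 19 of 31 member guides (61.3%) had no count in either T1 library, against 36.3% of all guides and 37.1% of control guides. Among guides with a T0 mean under 20 the shares lay closer together, at 15 of 18 (83.3%) for the factors, 69% for all guides and 72.4% for control guides. In the range from 20 to 200, 4 of 8 guides (50%) were gone, against 27.1% and 18.4%, and of the 5 guides above 200 none was. In SNU-398, 10 of 25 (40%) were gone, all from under 20, where the share was 66.7% against 50% of all guides and 42.4% of control guides. These bands were chosen after the counts were seen, and the shares are a description.

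HNF4A, the factor with the lower RNA, could hardly be assessed. In Hep3B its 4 guides had 2, 18, 6 and 12 counts in T0 replicate 1 and 2, 8, 12 and 6 in replicate 2. At T1 all 4 had none in both libraries, and over the 12 inhibitor libraries only 2 counts of 2 were seen. Summed over guides, 66 counts at T0 against 0 at T1 correspond to a level at least 5.47-fold lower (against 6 counts over both libraries, or 3 fragments counted in twos). In SNU-398 its 2 guides had 36 counts at T0 and none at T1, at least 2.75-fold lower. Among all Hep3B guides with a T0 mean under 20, which all 4 HNF4A guides had, 69% were at 0 at T1 as well.

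For NR1H4, the counts were as low. Its 4 Hep3B guides summed to 86 counts at T0 and 0 at T1, at least 7.12-fold lower, and guide 3, the most abundant, went from 38 and 20 counts to 0 and 0. In SNU-398 its 3 guides summed to 34 counts at T0 and 2 at T1. FOXA1 kept 1 of 4 guides in Hep3B: guide 1 had 2 and 12 counts at T0 and 26 and 24 at T1, while guides 2, 3 and 4 had none at T1. In SNU-398, FOXA1 guide 4 was the one left, with 66 and 30 counts at T0 and 36 and 18 at T1.

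The other 5 factors had guides with more counts. CEBPA guide 1, the most abundant, had 3396 and 1988 counts at T0 and 2424 and 1166 at T1 in Hep3B, or 72.9 and 97.6 CPM on average. In SNU-398 it had 3402 and 1995 counts, then 1622 and 893, or 73.6 and 75.5 CPM. CEBPA guide 4 went from 20.5 to 31.4 CPM in Hep3B and from 19.3 to 17.3 CPM in SNU-398. CEBPA guides 1 and 4 thus gained share in Hep3B, while guide 2, with 30 and 26 counts at T0, went to 0. Guide 3 had 0 and 2 counts at T0 and none at T1. In a proliferation screen a guide against a gene needed for growth loses share. Control guides gained share as well: of the 46 called by edgeR from T0 to T1 in Hep3B, 30 were higher and 16 lower.

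**Figure D4:**
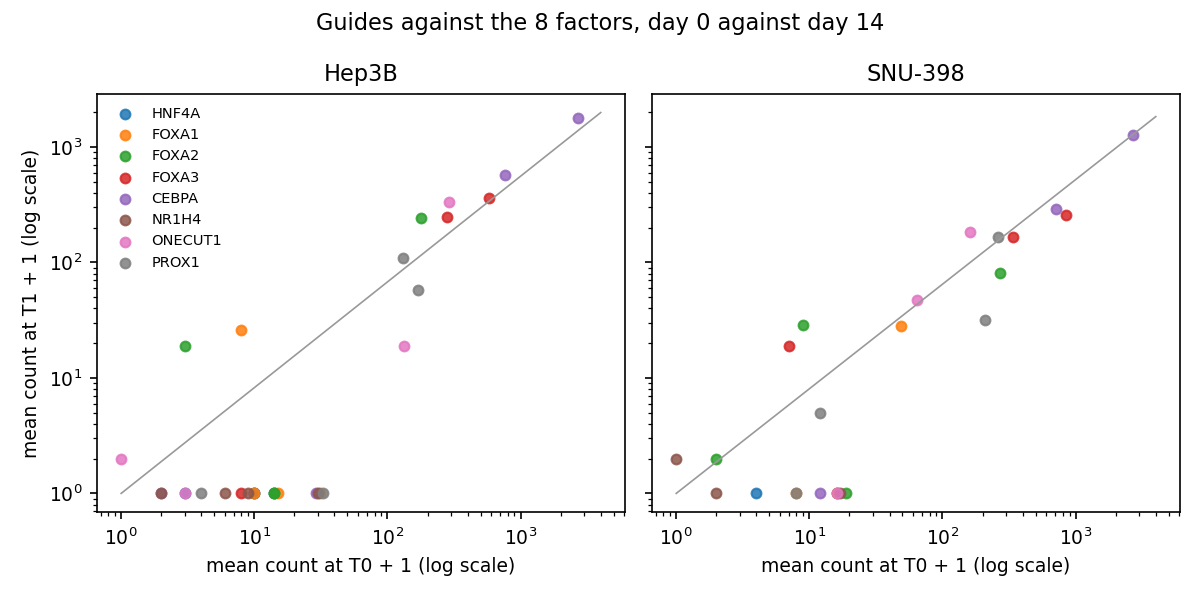
Mean count plus 1 of each guide against the 8 factors at T0 (horizontal, log axis) and at T1 (vertical, log axis), with 1 point per guide coloured by gene, for Hep3B (31 guides) and SNU-398 (25 guides). The grey line is an unchanged share of the library; 19 Hep3B guides and 10 SNU-398 guides lie on the floor at T1, all from T0 means under 50, while CEBPA guide 1 lies at the upper right in both lines.

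Summed over guides, 6 of 8 factors differed between T1 and T0 in Hep3B by edgeR, where 62.6% of all genes did. CEBPA (higher by 0.47, SE 0.05, adjusted p = 1.06e-17), FOXA3 (by 0.48, SE 0.10, adjusted p = 7.83e-06), ONECUT1 (by 0.74, SE 0.13, adjusted p = 8.27e-08) and FOXA2 (by 1.35, SE 0.18, adjusted p = 2.13e-12) were higher. HNF4A and NR1H4 were lower, a call that the filter on low counts let through on the T0 libraries alone. DESeq2 did not call either (adjusted p = 0.292 and 0.226). FOXA1 and PROX1 did not pass. With a median of 0.25 over the 8 factors and -0.04 over all genes, the sums followed their leading guide, which held 93.1% of the T1 counts of FOXA2 and 94.6% of those of ONECUT1.

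Single guides did not tell 1 story per gene. In Hep3B, 14 of the 31 guides could be tested and 12 passed, 8 higher and 4 lower. Among all guides 63.1% passed, and among control guides 54.8%, 30 as higher and 16 as lower. Of the lower guides, NR1H4 guide 3, CEBPA guide 2 and PROX1 guide 2 had no count in any day 14 library. The filter on low counts let them through on the T0 libraries alone, so they could only come out as lower. Of the higher guides, FOXA2 guide 3 (2 and 2 counts at T0, 24 and 12 at T1) and FOXA1 guide 1 (2 and 12, then 26 and 24) had the reverse limit. The filter let both through on day 14 libraries alone, so they could hardly come out as lower. ONECUT1 guide 3 fell from 172 and 90 counts to 26 and 10 (by 1.89 on the log2 scale, SE 0.46, adjusted p = 0.000255, edgeR). ONECUT1 guide 4 went the other way, from 392 and 190 to 496 and 174 (higher by 1.14, SE 0.15, adjusted p = 1.14e-09, edgeR). PROX1 guide 4 was higher (by 0.71, SE 0.27, adjusted p = 0.0171, edgeR) while PROX1 guide 2 went from 42 and 22 counts to 0. Guides to 1 gene share its target, so opposite directions are a spread among guides and not a level of the gene.

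In SNU-398 fewer changes passed. Of the 8 factors, only ONECUT1 passed from T0 to T1 (higher by 1.04, SE 0.23, adjusted p = 0.00997, edgeR), where 13.1% of all genes passed. That call was lost without T0 replicate 1 (adjusted p = 0.0930), T0 replicate 2 (adjusted p = 0.0777) or T1 replicate 1 (adjusted p = 0.100). Without Erastin replicate 2, whose distance from its partner enters the shared estimate of the spread, 39.3% of all genes passed, and HNF4A (adjusted p = 0.0113) and FOXA3 (adjusted p = 0.00689) passed as lower beside ONECUT1. HNF4A had 36 counts over its T0 libraries and none at T1, so it could not come out as higher. By guide, 6 of 20 tested passed, 2 higher and 4 lower, where 14.4% of all guides and 21.1% of control guides did. Without Erastin replicate 2, 14 passed, where 37.3% of all guides and 58 of 116 control guides did. Of the 6, ONECUT1 guide 1 and HNF4A guide 1 had no count at T1 and could not come out as higher. FOXA2 guide 1, at 2 and 14 counts at T0, could hardly come out as lower. ONECUT1 guide 4 was higher here too, from 196 and 122 counts to 258 and 109 (by 1.28, SE 0.28, adjusted p = 0.0122, edgeR). PROX1 guide 4 was lower (fell by 1.70, SE 0.40, adjusted p = 0.0154, edgeR), against its rise in Hep3B.

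The T0 to T1 change differed between the lines for 3 factors, tested on guides present in both tables, where 58.8% of all genes differed. FOXA2 was higher in Hep3B relative to SNU-398 by 1.60 (SE 0.24, adjusted p = 3.35e-08, edgeR interaction), FOXA3 by 0.82 (SE 0.13, adjusted p = 1.28e-07) and CEBPA by 0.47 (SE 0.07, adjusted p = 2.93e-09). In FOXA2 the difference rested on guide 2, at 4.86 CPM in T0 and 13.4 in T1 of Hep3B, and 7.25 and 5.32 CPM in SNU-398.

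For the inhibitors, the study's score is NormZ, a standardised sum over guides of the log ratio of inhibitor to T1, in which a negative value means that cells with the guides were rarer under the drug. In Hep3B none of the 48 values (8 factors under 6 inhibitors) passed a one-sided p of 0.01 in either direction, and they ran from -1.36 (PROX1 under Regorafenib) to 1.53 (ONECUT1 under Regorafenib). Among all genes 2.44% passed under Sorafenib, 2.66% under Regorafenib, 2.56% under Lenvatinib, 2.70% under Erastin, 2.55% under Abemaciclib and 2.64% under Palbociclib. HNF4A and NR1H4 stood between 0.412 and 0.702 in every Hep3B screen. Their guides were at 0 on nearly every side of these ratios, so those values reflect the centring of the score and not a count.

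In SNU-398, 2 of the 48 values passed. All genes passed at 2.64% under Sorafenib, 2.27% under Regorafenib, 2.37% under Lenvatinib, 2.46% under Erastin, 2.42% under Abemaciclib and 2.53% under Palbociclib. ONECUT1 had a NormZ of -2.79 under Palbociclib. ONECUT1 guide 3 had 60 and 32 counts at T1 and 16 and 20 under Palbociclib, and guide 4 had 258 and 109 against 75 and 50, so both were lower in both libraries. With the libraries numbered 2 alone its NormZ was -2.02, past no threshold. In Hep3B the value of ONECUT1 under Palbociclib was 0.61.

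FOXA2 had a NormZ of 2.71 under Erastin in SNU-398. Guide 1 had 32 and 24 counts at T1 and 86 and 42 under Erastin, guide 2 had 78 and 82 against 148 and 181, guide 3 had 0 and 0 against 2 and 76, and guide 4 had 0 and 2 against 48 and 6. The 76 counts of guide 3 lay in Erastin replicate 2, the library that resembled Hep3B, and without it NormZ was 2.50. With only guides of at least 30 counts at T1, which left guide 2, NormZ was 0.88, and with the libraries numbered 2 alone it was 2.03, both past no threshold. In Hep3B the value was 0.27.

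**Figure D5:**
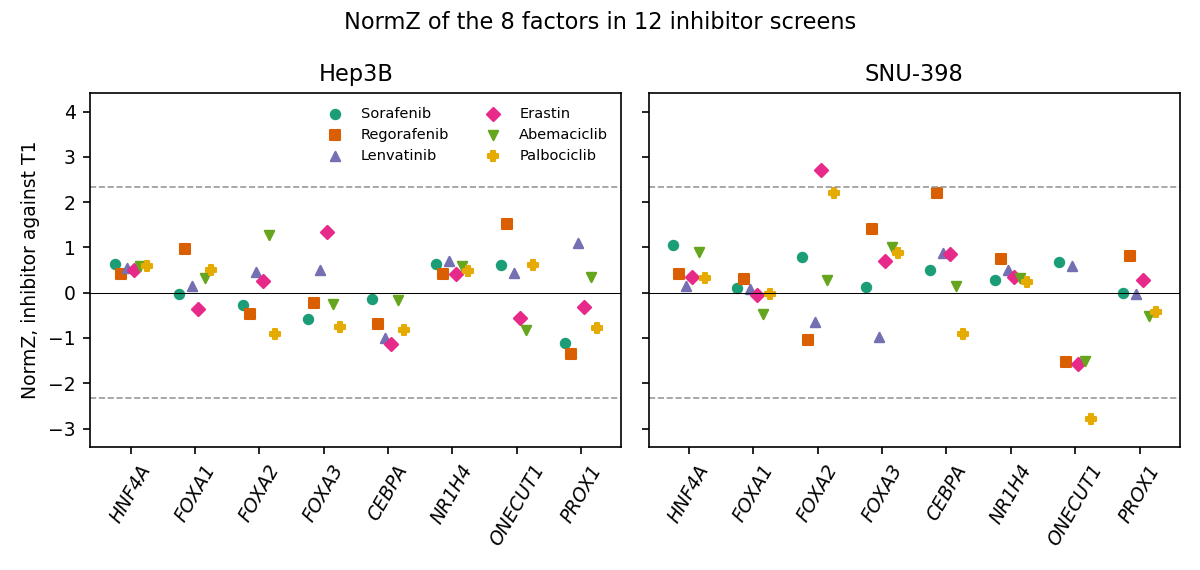
NormZ (vertical axis) of the 8 factors in the 6 inhibitor screens of Hep3B and of SNU-398, with 1 symbol per inhibitor; dashed lines mark a one-sided p of 0.01. All Hep3B values lie between -1.36 and 1.53, and 2 SNU-398 values, FOXA2 under Erastin at 2.71 and ONECUT1 under Palbociclib at -2.79, lie outside the lines.

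With libraries rather than guides as observations, 29 of 48 comparisons of a factor with T1 passed in Hep3B, 7 higher and 22 lower. All 48 share the same T1 libraries, and the shares of all genes below are for either direction, so this split has none beside it. All genes passed at 76.9% under Sorafenib, 61.8% under Regorafenib, 72.7% under Lenvatinib, 68.7% under Erastin, 75.8% under Abemaciclib and 65.6% under Palbociclib, so calls were common among all genes. For HNF4A and NR1H4, 9 of their 12 comparisons had no count on either side and 3 rested on 6 counts or fewer, so the 29 calls came from the 36 comparisons of the other factors. Both abundant PROX1 guides moved together under several inhibitors. Under Sorafenib its guide 3 went from 70 and 44 counts at T1 to 2 and 6, and guide 4 from 142 and 74 to 22 and 16 (the sum fell by 2.60 on the log2 scale, SE 0.28, adjusted p = 1.45e-19, edgeR). Under Regorafenib guide 3 had 18 and 2 counts and guide 4 had 76 and 34 (the sum fell by 1.52, SE 0.24, adjusted p = 9.70e-10, edgeR). Under Lenvatinib both were above T1 (sum higher by 0.82, SE 0.21, adjusted p = 0.000127, edgeR).

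CEBPA was lower under all 6 inhibitors in Hep3B, with differences of -0.53 to -0.24 on the log2 scale. Its guides did not share this: guide 1 stood at 0.423 to 0.751 of its T1 level in CPM and guide 4 at 0.736 to 1.27. ONECUT1, carried by guide 4, was higher under Sorafenib (by 1.22, SE 0.13, adjusted p = 1.85e-21, edgeR) and Regorafenib (by 1.08, SE 0.13, adjusted p = 1.21e-16, edgeR). It fell by 1.88 under Abemaciclib (SE 0.16, adjusted p = 2.27e-30, edgeR) and fell by 1.15 under Erastin (SE 0.15, adjusted p = 5.26e-14, edgeR). ONECUT1 guide 3, at 26 and 10 counts at T1, moved against guide 4 under Sorafenib (2 and 0), Abemaciclib (60 and 22) and Erastin (30 and 26). Under Regorafenib guide 3 had 40 and 16 counts, higher in CPM than at T1 as guide 4 was. FOXA2, also carried by 1 guide, fell by 1.58 under Sorafenib (SE 0.21, adjusted p = 9.45e-14, edgeR), and its guide 2 had 74 and 30 counts against 312 and 171 at T1. FOXA3 guide 1 had 682 and 416 counts under Erastin against 320 and 170 at T1, while guide 2 had 408 and 246 against 504 and 215. FOXA1 was called under 3 inhibitors on the strength of guide 1, which had 26 and 24 counts at T1.

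In SNU-398, 10 of 48 comparisons passed, 5 higher and 5 lower, with 3 of the 48 at 0 on both sides and 3 more resting on 6 counts or fewer. Among all genes 38.3% passed under Sorafenib, 36.8% under Regorafenib, 44.3% under Lenvatinib, 28.5% under Erastin, 4.77% under Abemaciclib and 17.4% under Palbociclib. Without Erastin replicate 2, 16 of 48 passed, where the share of all genes ran from 27.8% under Abemaciclib to 61.1% under Lenvatinib. ONECUT1 fell by 1.57 under Palbociclib (SE 0.24, adjusted p = 0.00123, edgeR). It fell by 1.03 under Regorafenib (SE 0.23, adjusted p = 0.0036) and fell by 0.97 under Erastin (SE 0.23, adjusted p = 0.00666). PROX1 did not pass under any inhibitor in this line. Without Erastin replicate 2 it passed under Regorafenib (higher by 0.47, adjusted p = 0.0101, edgeR) and Palbociclib (-0.41, adjusted p = 0.0441). Its guides 3 and 4 lay on the same side of T1 under Sorafenib and Abemaciclib and on opposite sides under the other 4 inhibitors. Under Regorafenib guide 3 had 96 and 86 counts against 232 and 98 at T1, and guide 4 had 220 and 159 against 52 and 10. HNF4A was called as higher under Sorafenib from 10 and 10 counts of guide 1 against 0 and 0 at T1.

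The response to an inhibitor differed between the lines in 23 of 48 tests. The 12 tests of HNF4A and NR1H4, with no T1 count in Hep3B, could give no usable error, so the 23 came from the other 36. Among all genes the response differed for 63.5% under Sorafenib, 46.7% under Regorafenib, 59.3% under Lenvatinib, 48.8% under Erastin, 60.5% under Abemaciclib and 48.0% under Palbociclib. PROX1 under Sorafenib gave a difference of -2.54, Hep3B minus SNU-398 (SE 0.33, adjusted p = 2.51e-07, edgeR interaction). ONECUT1 under Regorafenib was higher in Hep3B by 2.14 (SE 0.30, adjusted p = 3.20e-06), being above T1 in Hep3B and below it in SNU-398.

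Guides of 1 gene moved together about as often as not. Where a gene had exactly 2 guides with a mean of at least 30 counts in the reference group, both lay on the same side of it for 50.5% to 54.7% of all genes, depending on line and comparison. For the factors with 2 such guides this was so in 9 of 18 inhibitor comparisons in Hep3B (CEBPA, FOXA3 and PROX1) and in 11 of 24 in SNU-398 (the same 3 and ONECUT1). In Hep3B, PROX1 accounted for 5 of the 9.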

How the data were processed

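Genome-wide knockout screens (2 libraries per group, 8 groups in each of 2 lines) and RNA-seq (3 libraries per group) were analysed, 38 samples in all. The deposited screen files hold guide counts, which the authors obtained by aligning reads to the TKOv3 library with Bowtie2. The deposited RNA table holds gene counts and FPKM, for which the authors used the aligner HISAT2 (version 2.0.5) and the counter featureCounts (version 1.5.0-p3). The labels name mm9, but the positions of all 8 factors overlap those of RefSeq GRCh38.p14. Columns of the authors' own comparison (fold changes and p-values) were not used.

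Counts were tested with edgeR 4.0.16 (TMM, filterByExpr, quasi-likelihood test, Benjamini-Hochberg threshold 0.05, R 4.3.3), for the screens on counts summed per gene with all groups of a line in 1 fit, and per guide. Differences between lines were interaction terms. NormZ was recomputed in Python 3.11.15 with a pseudocount of 5 and a one-sided p threshold of 0.01. It treats guides as observations. Scripts were tested on simulated data. The alternatives were DESeq2 1.42.0, limma 3.58.1 on log2(FPKM + 1), no low-count filter, other scalings and pseudocounts, a replicate block and leaving out libraries.

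Depth was 15404153 to 16851558 counts per RNA-seq library, 11198022 to 46376708 per Hep3B screen library and 11558112 to 46043970 per SNU-398 screen library. Limits for zero counts used 3 reads in the RNA-seq and 6 counts (3 fragments counted in twos) in the screens, and these and the intervals of counts cover counting error only. Groups came from the sample labels. Replicate numbers were not treated as pairs in the main edgeR tests. Same-numbered RNA-seq libraries correlated at 0.0547, 0.239 and -0.0157 in their deviations from the group means. NormZ did pair by number: each inhibitor library was set against the T1 library of the same number.

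The factors and the gene lists were chosen with earlier results of these data known. Named genes were the 8 factors, PSTK, NR0B2, CYP7A1, ALB and AFP, and from each list up to 4 called genes per direction with the largest fold change among those with at least 1 CPM in the higher group. FGB, EPCAM, KRT19, SPP1, the markers given at 0, COL1A2, ONECUT2, GATA4 and GATA6 were named after their values were seen. Some listed genes enter the counts and are not reported here by name. Guide sequences were not analysed here.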

Additional observations from a re-analysis of the deposited data

Results flagged for a closer look

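These differences between Hep3B and SNU-398, each tested as an edgeR interaction term with Benjamini-Hochberg adjustment and given as Hep3B minus SNU-398 on the log2 scale, passed the threshold. Their causes were not tested, and between 46.7% and 63.5% of all genes passed the same tests.

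From T0 to T1, the difference was 0.47 for CEBPA, 1.60 for FOXA2 and 0.82 for FOXA3. For CEBPA against T1 it was -0.34 under Sorafenib, -0.54 under Regorafenib, -0.74 under Lenvatinib, -0.60 under Erastin and -0.23 under Abemaciclib, all on the lower side in Hep3B. For FOXA3 it was -1.04 under Sorafenib, -0.70 under Regorafenib, 0.39 under Lenvatinib, 0.63 under Erastin, -0.39 under Abemaciclib and -0.70 under Palbociclib.

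For FOXA2 the difference was -1.92 under Sorafenib, -0.98 under Erastin and -2.13 under Palbociclib. For ONECUT1 it was 1.05 under Sorafenib, 2.14 under Regorafenib, -1.24 under Abemaciclib and 1.91 under Palbociclib. For PROX1 it was -2.54 under Sorafenib, -2.01 under Regorafenib, 0.92 under Lenvatinib and -0.84 under Palbociclib. For FOXA1 it was -2.81 under Sorafenib, between different guides: guide 1 held all T1 counts in Hep3B, and guide 4 all those in SNU-398. In Hep3B, 1 guide held 100% of the T1 counts of FOXA1, 94.6% of those of ONECUT1 and 93.1% of those of FOXA2.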

How the results depend on the processing

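The lower HNF4A RNA in PSTK-KO was called, as 1 of 8 factors, under all 10 alternatives run, the replicate block included. Of the liver genes, 22 to 30 were called under them (28 as reported, 30 with the replicate block). With the block, SNU-398 guides gave 4 calls in place of 6. The block, or its removal for NormZ, changed no other count of factors called. In Hep3B, 22 of the 31 guides were called with no filter on low counts, in place of 12. Among all guides 58.1% were called under that setting, and among control guides 73 of 132. Guides with no count at T1 could not come out as higher. Leaving out 1 library each gave 10 to 14 Hep3B guides.

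In SNU-398 the counts depended on single libraries, as did the shares of all genes and guides called. Without Erastin replicate 2, 39.3% of all genes and 37.3% of all guides passed from T0 to T1. From T0 to T1, DESeq2 called 2 factors in place of 1, and leaving out 1 library gave 0 to 3 factors and 0 to 14 guides. Leaving out 1 library gave 7 to 17 calls under inhibitors in place of 10, with 17 without Erastin replicate 1 and 16 without Erastin replicate 2. NormZ calls were 1 in place of 2 with only guides of a mean T1 count of at least 30, and 0 to 3 when libraries were left out, with 0 without replicate 1. Where an arm kept 1 library, it was assumed to vary like the others. No called value changed direction. Of the single values, 32 lost and 4 gained a call, among them SOX9, NR5A2, ABCC2, CP, VWF and CDH5, which lost theirs in at least 1 alternative. The cause was not tested. Low guide counts limited what could be seen for HNF4A, NR1H4 and FOXA1 in the screens.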
